A study of Mus musculus with 4 samples.

Results

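The variable (V) genes of the T cell receptor alpha and beta chains were examined in the T cells of 4 mouse liver single-cell libraries. Every symbol of the gene list that begins with Trav (128 genes) or Trbv (35 genes) was taken, which gave 163 V genes of 32285 genes in all. The cells were those with at least 500 detected genes, at most 20% mitochondrial molecules and at least 2 molecules of the CD3 genes Cd3d, Cd3e and Cd3g together, called CD3 cells below. All mice were male C57BL/6J animals. One liver came from a mouse on a normal chow diet (NCD), 2 livers (HFD replicate 1 and HFD replicate 2) came from mice fed a high-fat diet (HFD), and one liver came from a mouse kept on the high-fat diet and then treated with the herbal formula Jiangtang Qingre Formula (JQF). The NCD and JQF groups therefore had 1 library each, and no value below carries a replicate error for them. The labels call the cells immune cells and also name a hematopoietic stem cell line, whereas the suspensions were whole digested livers.

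A developing T cell joins a V gene to a joining (J) gene, with a D gene between them in the beta chain. The joined exon is spliced to a constant gene (Trac for alpha, Trbc1 or Trbc2 for beta). A joined V gene of a mature T cell stays with all its descendants, so that V genes are widely used to follow expanded clones. Invariant natural killer T (iNKT) cells, which are abundant in the mouse liver, share one alpha chain made of Trav11 and Traj18, paired mostly with Trbv13-2, Trbv29 or Trbv1, and depend on the transcription factor Zbtb16. MAIT cells, another T cell type with a near-fixed alpha chain, use Trav1. Genes with "dv" in their symbol, such as Trav13-4-dv7, can also be joined into the delta chain of gamma-delta T cells, whose constant gene is Trdc.

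The Trav cluster of the C57BL/6J genome was copied during evolution, and the copies carry "d" or "n" in their symbols. This matters for Trav11 above all. In the GENCODE M21 annotation (GRCm38) the coding sequence of Trav11d (chr14:52824357-52824912, forward strand) had the same 342 bases as that of Trav11 (chr14:53519303-53519859, forward strand), which has 1 base more at its end, and the pseudogene Trav11n (chr14:53135122-53135678, forward strand) differed from Trav11 at 8 of 343 bases. The last 120 bases before the join are shown for these 3 genes, with capitals at the bases that differ from Trav11.
Trav11: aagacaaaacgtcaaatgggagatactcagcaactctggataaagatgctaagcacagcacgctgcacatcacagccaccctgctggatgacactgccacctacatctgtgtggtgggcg
Trav11d: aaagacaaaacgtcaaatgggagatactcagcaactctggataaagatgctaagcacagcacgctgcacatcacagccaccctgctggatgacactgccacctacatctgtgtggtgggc
Trav11n: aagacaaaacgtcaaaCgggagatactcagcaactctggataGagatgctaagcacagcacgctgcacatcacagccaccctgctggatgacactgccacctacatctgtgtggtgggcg
Trav13-4-dv7 (chr14:53757356-53757921), the gene that led HFD replicate 2, differed from its copy Trav13d-4 (chr14:53072763-53073274) at 7 of 331 aligned bases, and capitals mark the 4 of them in the stretch shown.
Trav13-4-dv7: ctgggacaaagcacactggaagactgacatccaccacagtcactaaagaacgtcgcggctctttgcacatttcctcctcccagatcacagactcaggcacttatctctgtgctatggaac
Trav13d-4: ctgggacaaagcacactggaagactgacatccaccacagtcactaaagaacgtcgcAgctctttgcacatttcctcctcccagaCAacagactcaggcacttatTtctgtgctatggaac
Trav16n (chr14:53351028-53351621), which led HFD replicate 1, differed from Trav16d-dv11 (chr14:53047287-53047821) at 6 of 350 aligned bases, of which 1 lies in the stretch shown.
Trav16n: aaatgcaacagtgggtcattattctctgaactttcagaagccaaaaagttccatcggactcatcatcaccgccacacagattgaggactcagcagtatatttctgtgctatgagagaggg
Trav16d-dv11: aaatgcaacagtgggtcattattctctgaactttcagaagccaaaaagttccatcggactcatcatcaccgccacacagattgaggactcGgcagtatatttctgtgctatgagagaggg
Trav7d-3 (chr14:52744249-52744840) and Trav7-3 (chr14:53443249-53443839), most frequent in different HFD libraries below, differed at 4 of 402 bases, of which 2 are shown in capitals.
Trav7d-3: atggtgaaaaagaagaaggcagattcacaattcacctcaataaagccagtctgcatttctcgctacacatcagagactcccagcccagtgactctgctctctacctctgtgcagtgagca
Trav7-3: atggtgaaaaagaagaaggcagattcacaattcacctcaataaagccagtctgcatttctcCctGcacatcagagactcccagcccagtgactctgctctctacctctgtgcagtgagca
The symbols are kept below as the files give them. Of the 128 Trav genes, 39 had no stretch of 90 bases of their own among all annotated transcripts, and 38 of those 39 were not detected in any CD3 cell. The exception was Trav11d, with 1 molecule in each HFD library. Trav11 shared 99.6% of its 90-base stretches with Trav11d and nevertheless had the highest mean usage of the Trav genes over the 4 libraries (17.6%, against 15.7% for Trav13-4-dv7), and the deposited counts placed nearly all UMIs of the pair under Trav11. How well the counted reads separate the 2 copies was not tested, and they are counted together as Trav11 cells. All 90-base stretches were unique in 32 of the 35 Trbv genes.

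V genes were detected in a minority of the CD3 cells. The libraries were read from the 3′ end of the transcript, and the V exon lies at its 5′ end. The CD3 cells numbered 839 in NCD, 2088 in HFD replicate 1, 2233 in HFD replicate 2 and 3925 in JQF, with a median of 10943, 7326, 6893 and 8266 molecules (unique molecular identifiers, UMIs) per cell. A Trav UMI was found in 11.9% of them in NCD, 25.2% in HFD replicate 1, 30.8% in HFD replicate 2 and 18.3% in JQF. A Trbv UMI was found in 26.9%, 17.9%, 13.7% and 14.1%, in the same order. NCD thus had the lowest share of CD3 cells with an alpha chain UMI and the highest share with a beta chain UMI, although its CD3 cells had the highest median depth. With every cell thinned to 3000 UMIs, which left out 21 to 155 cells a library, the Trav shares were 3.3%, 12.5%, 18.8% and 7.81%, and the Trbv shares 10.4%, 7.56%, 5.53% and 5.49%. There were 0.386 Trav UMIs per Trbv UMI in NCD, 1.73 in HFD replicate 1, 4.16 in HFD replicate 2 and 1.79 in JQF. In cells that should lack both chains (no CD3 UMI and at least 2 UMIs of B cell, endothelial or myeloid markers, at median depths of 5755 to 19214 UMIs), a Trav UMI was found in at most 0.333% and a Trbv UMI in at most 0.222% of the cells of any library.

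In all, 70 Trav and 24 Trbv genes had at least 1 UMI in a CD3 cell, 29 Trav and 17 Trbv genes were seen in all 4 libraries, and 69 V genes were not detected. The annotation marks 33 of the 163 V genes as pseudogenes. Some of these were detected and are counted in the usage below, such as Trav8-2 in 26 cells and Trbv24 in 20. Many detections rested on a single molecule: 49.4% (HFD replicate 2) to 82% (NCD) of the cells with a Trav UMI and 69.0% to 87.6% of those with a Trbv UMI had exactly 1. Both chains were seen in 34, 115, 105 and 125 cells of NCD, HFD replicate 1, HFD replicate 2 and JQF. The CD3 cells of NCD also carried 22.7 UMIs per cell of 4 endothelial markers (Kdr, Ptprb, Stab2 and Clec4g), against 0.0536 to 1.13 in the other libraries, and 21.7% of them held at least 2 such UMIs, against 0.575% to 3.81%. B cell markers stood at 4.61 UMIs per CD3 cell in JQF and at 0.744 to 0.956 elsewhere, and 21.7% of the JQF cells held at least 2 such UMIs, against 12.2% to 14.2%. Myeloid markers stood at 0.662, 2.55, 5.91 and 3.71 UMIs per cell in NCD, HFD replicate 1, HFD replicate 2 and JQF. At least 2 UMIs of 4 NK cell markers (Ncr1, Klrb1c, Eomes and Klra8) were held by 37.2%, 22.9%, 25.7% and 29.8% of the CD3 cells in the same order. Klrb1c and Eomes are also on the iNKT and CD8 effector lists used below. At least 2 UMIs of 4 hepatocyte markers were held by 34.0%, 3.45%, 12.2% and 23.4%. NK cells were not removed from the CD3 cells, and their part in shares of CD3 cells was not tested. With all CD3 cells holding at least 2 UMIs of B cell, endothelial or myeloid markers left out, the usage of Trav11 was 9.64%, 10.3%, 6.19% and 44.6% and that of Trav13-4-dv7 was 1.2%, 1.24%, 59.6% and 1.07% in NCD, HFD replicate 1, HFD replicate 2 and JQF, close to the values over all CD3 cells that follow. These are shares of Trav cells. In the marker gates without CD3 UMIs at most 0.333% of cells had a Trav UMI, so cells of other types hardly enter such shares. The closeness therefore says little about them. Shares of all CD3 cells are not given for this choice.

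Over all CD3 cells, each library was led by a different alpha chain gene, while the beta chain gene Trbv12-2 led in all 4. Usage is given as the share of cells with a UMI of any gene of the chain that held the gene, with exact Clopper-Pearson 95% intervals that cover counting error only. Trav11 was used by 44.8% of the Trav cells of JQF (41.2 to 48.6), Trav13-4-dv7 by 59.4% of those of HFD replicate 2 (55.7 to 63.1), Trav16n by 35.4% of those of HFD replicate 1 (31.3 to 39.6) and Trav6-4 by 13% of those of NCD (7.11 to 21.2). In the other 3 libraries none of these 4 genes exceeded 10%. The shares of 2 libraries that were not in common, summed over the Trav genes, came to 67.0% between the 2 HFD replicates, within the range of 48.1% to 73.8% over the other pairs of libraries, so the replicates of the same diet differed as much in their alpha chain usage as libraries of different groups did. For the Trbv genes the corresponding values were 28.6% between the HFD replicates and 22.5% to 37.9% over the other pairs.

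**Figure D1:**
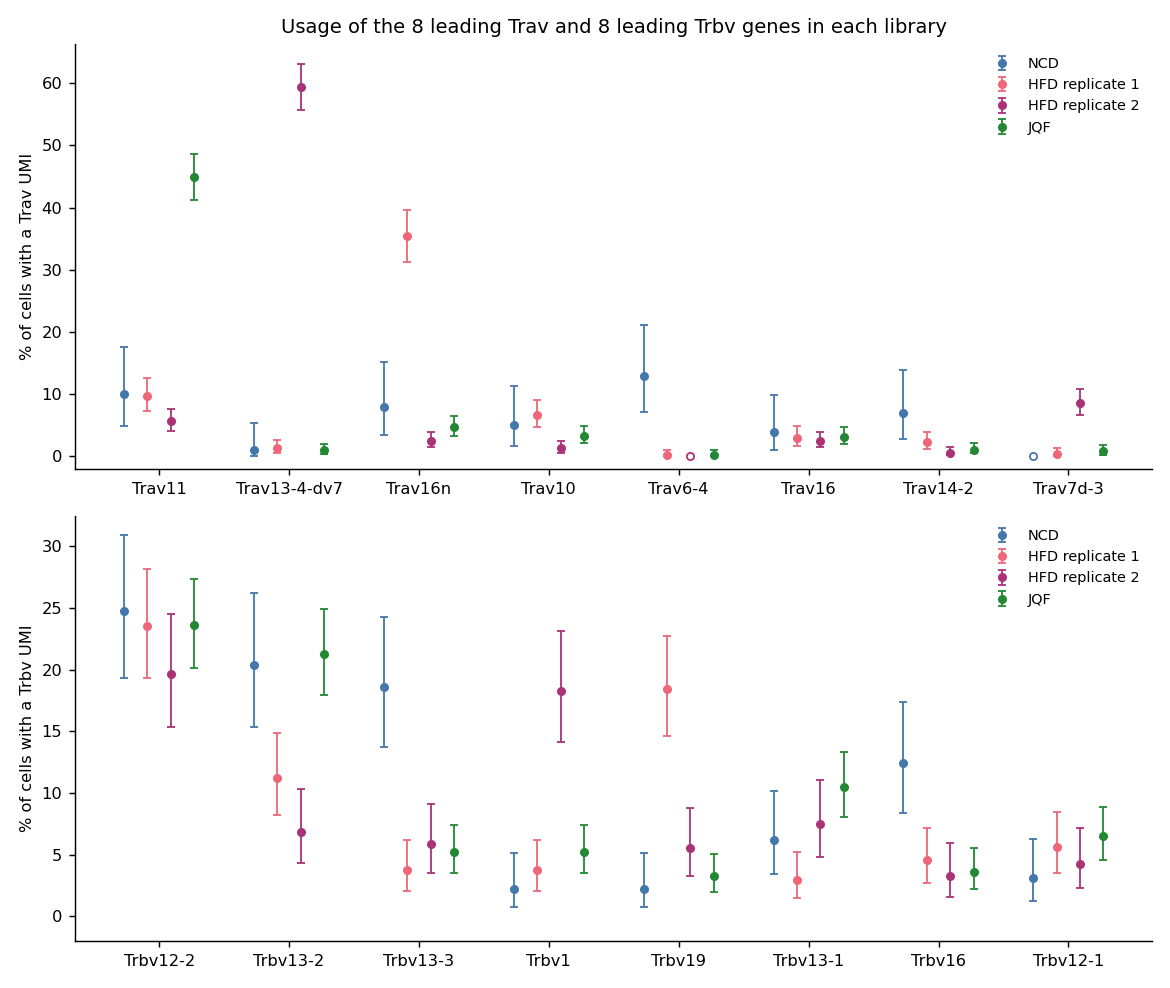
Usage of the 8 Trav genes (top) and 8 Trbv genes (bottom) with the highest mean over the 4 libraries. The y axis is the percentage of cells with a UMI of that chain, points are libraries, bars are exact 95% intervals for counting error, and open circles are genes with no UMI; Trav13-4-dv7 stands at 59.4% in HFD replicate 2 and Trav11 at 44.8% in JQF, while Trbv12-2 lies between 19.6% and 24.8% in all 4.

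**Figure D2:**
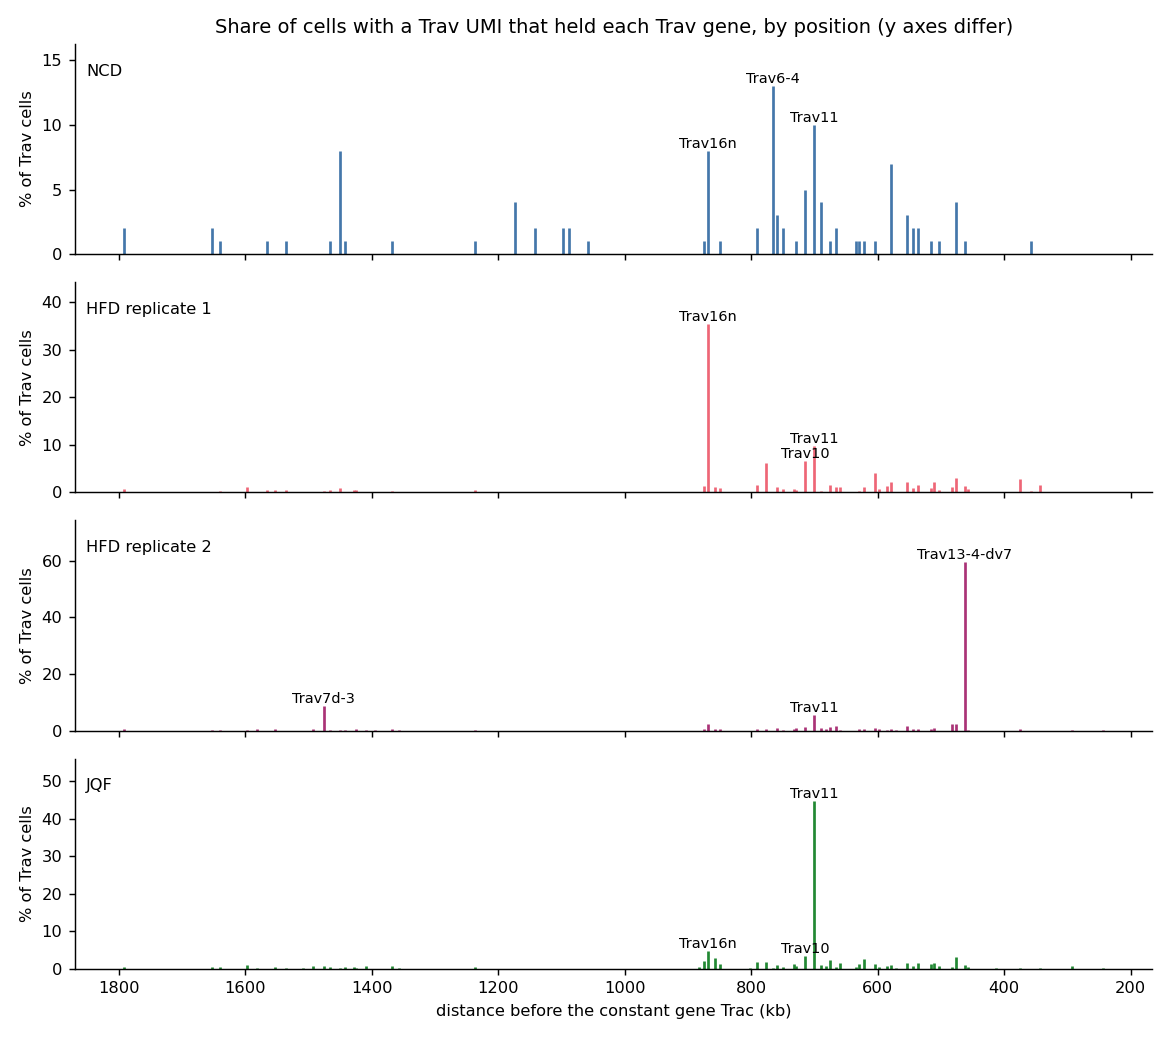
Usage of every detected Trav gene by its distance in kilobases before the constant gene Trac (x axis), as a percentage of cells with a Trav UMI (y axis, own scale per library). The 3 most used genes are named in each panel. Trav16n, Trav13-4-dv7 and Trav11 each exceed 10% in 1 library only. On the own scale of NCD, Trav11 at 10% and Trav16n at 8% also stand out.

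Trav11, the V gene of iNKT cells, was found in 10 cells of NCD, 52 of HFD replicate 1, 40 of HFD replicate 2 and 322 of JQF, Trav11d included. That was 10%, 9.89%, 5.81% and 44.8% of the Trav cells, and 1.19% (0.573 to 2.18), 2.49% (1.87 to 3.25), 1.79% (1.28 to 2.43) and 8.2% (7.36 to 9.11) of the CD3 cells. The Trav cells included 186 of 526 with Trav16n in HFD replicate 1 and 409 of 688 with Trav13-4-dv7 in HFD replicate 2. These cells lower the share of Trav cells with Trav11 there. JQF lay above the other 3 libraries by the share of Trav cells and by that of CD3 cells, and the intervals of NCD and the HFD replicates overlapped. Traj18, the joining gene of the same chain and no V gene, was not ordered in this way: it was found in 8.82% of CD3 cells in NCD (6.99 to 10.9), 2.25% and 1.88% in the HFD replicates and 8.08% in JQF (7.24 to 8.97). Zbtb16 was found in 33.8%, 16.4%, 14.9% and 54.8% of CD3 cells in the order NCD, HFD replicate 1, HFD replicate 2 and JQF. NCD was thus next to JQF by Traj18 and above the HFD replicates by Zbtb16, yet had the lowest share of CD3 cells with Trav11, beside its low number of Trav UMIs of any kind, whose part in this was not tested. As a share of Trav cells, NCD (10%) and HFD replicate 1 (9.89%) were close, with the Trav16n cells counted among the Trav cells of the latter.

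Among the cells with both a Zbtb16 and a Trav UMI, Trav11 was used by 10 of 28 in NCD (35.7%, 18.6 to 55.9), 42 of 75 in HFD replicate 1 (56%, 44.1 to 67.5), 22 of 62 in HFD replicate 2 (35.5%, 23.7 to 48.7) and 272 of 419 in JQF (64.9%, 60.1 to 69.5). Among Trav cells with no Zbtb16 UMI the single gene Trav11 made up 0 of 72 in NCD (0 to 4.99) and 2.0%, 2.88% and 16.7% in HFD replicate 1, HFD replicate 2 and JQF. Cells with neither Cd4 nor Cd8a and Cd8b1 UMIs, where many iNKT cells are known to fall, made up 31.0%, 27.1%, 22.2% and 50.2% of CD3 cells, and Trav11 was the leading Trav gene among them in every library (34.6%, 34.9%, 37.7% and 59.5% of their Trav cells). More cells that use a gene and more molecules of it per cell cannot be told apart in such shares.

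**Figure D3:**
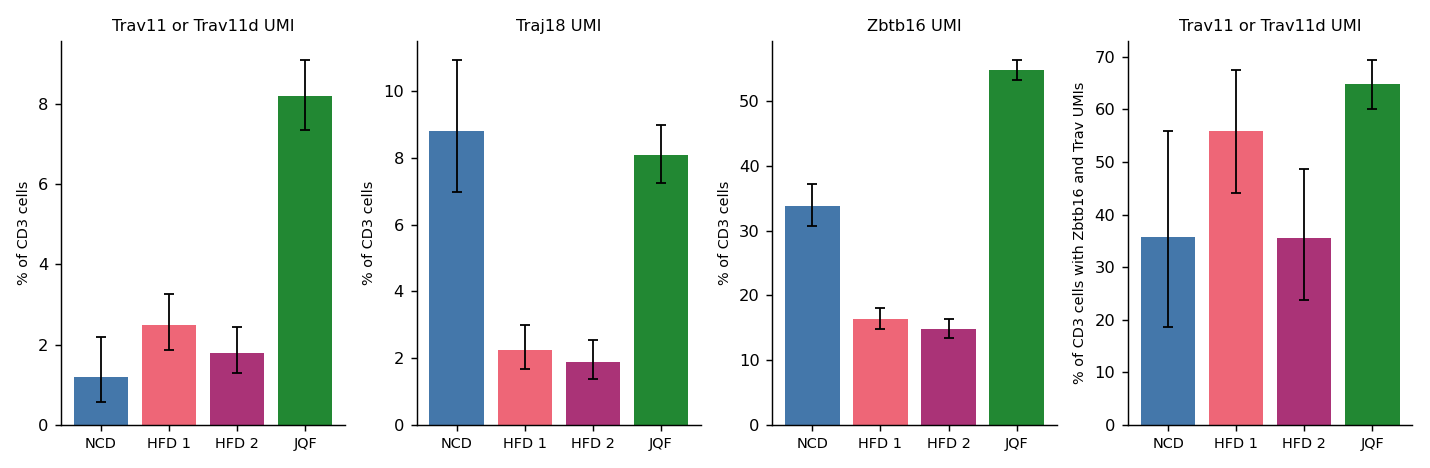
Percentage of CD3 cells with a Trav11 or Trav11d, a Traj18 or a Zbtb16 UMI, and percentage of CD3 cells with both Zbtb16 and Trav UMIs that used Trav11 or Trav11d. Bars are libraries and lines are exact 95% intervals; JQF is highest by Trav11 (8.2%) and Zbtb16 (54.8%), while NCD (8.82%) and JQF (8.08%) stand side by side by Traj18.

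Cells with Trav11 differed from the other Trav cells of the same libraries in genes the choice did not use. UMIs were summed per library and class and tested with edgeR's quasi-likelihood test with the library as a block, p-values adjusted by Benjamini-Hochberg over 11639 genes. In all, 230 genes passed (1.98%), of which 118 were higher (1.01%) and 112 lower (0.962%) in Trav11 cells. These counts include 1 Trav gene that was higher and 2 that were lower, out of 6 in the fit, and the choice of the classes fixes their outcome, so nothing is read from them. Of the 15 genes of the iNKT list, 5 were higher and 1 lower, and the median log2 difference of the list was 0.42 against -0.06 over all genes. Zbtb16 stood at 2126, 391, 273 and 516 CPM (UMIs of the gene per 1000000 UMIs of the class) in the Trav11 cells of NCD, HFD replicate 1, HFD replicate 2 and JQF, and at 103, 44.2, 29.9 and 191 in the other Trav cells. It was higher in the Trav11 class of every library, by 3.02 on the log2 scale (SE 0.36, adjusted p = 0.00142).

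Traj18 was higher by 3.28 (SE 0.51, adjusted p = 0.00645), with 90.5, 21.7, 9.88 and 21.0 CPM in Trav11 cells and 5.54, 1.12, 0.654 and 4.91 in the others. These values rest on few molecules outside JQF: 10, 10, 3 and 75 UMIs in Trav11 cells and 9, 5, 4 and 22 in the others. Il4, a cytokine that iNKT cells make quickly, was higher by 3.66 (SE 0.46, adjusted p = 0.00178), and the NK receptor gene Klrb1c and the costimulator gene Icos passed at 2.25 and 0.91. Slamf6, a receptor of iNKT cell development, was lower (-1.44). The iNKT chemokine receptor gene Cxcr6 was not called at 0.42 (SE 0.20, adjusted p = 0.496).

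The CD8 effector and checkpoint genes lay on the other side. Of their 11 genes, 9 were lower in Trav11 cells and none higher, with a list median of -3.07. Cd8b1, the beta chain of the CD8 co-receptor, was at 0, 8.68, 19.8 and 12.9 CPM in Trav11 cells and at 139, 352, 610 and 194 in the others. The checkpoint receptor gene Pdcd1 was lower by 3.1 on the log2 scale (-3.10, SE 0.63, adjusted p = 0.0233), and the protease gene Gzmk, the factor Eomes and the checkpoint gene Lag3 stood at -3.58, -4.44 and -3.07. The comparison class included the 409 Trav13-4-dv7 cells of HFD replicate 2 and the 186 Trav16n cells of HFD replicate 1, described below, in which CD8 and checkpoint transcripts were frequent.

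Other lists gave fewer calls. Of 17 genes of the receptor complex and its signalling, 3 were lower, namely Cd8a, Cd8b1 and the signalling chain gene Cd247 (-0.80), and none was higher. Of the 5 gamma-delta receptor genes that were tested, Trdc was lower (-3.08, SE 0.62, adjusted p = 0.0225). Tcrg-C1, the gamma constant gene, was higher (2.13, SE 0.40, adjusted p = 0.0172). Zbtb16, Traj18 and Il4 passed with any 1 library left out, whereas Icos, Klrb1c, Pdcd1, Tox, Cd247, Trdc and Tcrg-C1 each lost the call without at least 1 of the libraries. DESeq2 called 2.87% of the genes, and edgeR 2.92% without the filter on low counts, 2.29% without predicted doublets and 3.68% with cells counted. The number of genes called was 119 without HFD replicate 1 and 74 without HFD replicate 2. With the library block removed 10 genes were called, and the calls of Zbtb16 (adjusted p = 0.144), Traj18 (adjusted p = 0.127) and Il4 (adjusted p = 0.109) were lost at log2 differences of 3.09, 3.33 and 3.29.

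Only 1 Trbv gene, Trbv12-2, passed the filter on low counts in that comparison, and it was not called (0.17, SE 0.77, adjusted p = 0.994). The beta chains were therefore counted per cell. Of the Trav11 cells with a Trbv UMI, Trbv13-2, Trbv29 or Trbv1 was held by 1 of 2 in NCD, 0 of 2 in HFD replicate 1, 1 of 3 in HFD replicate 2 and 25 of 54 in JQF (46.3%, 32.6 to 60.4). Of the other Trav cells with a Trbv UMI it was 8 of 32 (25%), 22 of 113 (19.5%), 41 of 102 (40.2%) and 17 of 71 (23.9%, 14.6 to 35.5). Trav11 cells were higher in 2 of 4 libraries, with a mean difference of 5.26 percentage points ± 21.9 (SD, n = 4; two-sided exact permutation test over libraries, p = 0.75; with 4 libraries this test cannot reach a p under 0.05). JQF was the sole library with more than 3 such cells, and the mean difference was -0.44 points without it, -1.33 without NCD, 13.5 without HFD replicate 1 and 9.29 without HFD replicate 2. With Trav13-4-dv7 cells left out, a choice made after the data had been seen, the other Trav cells of HFD replicate 2 gave 8 of 46 (17.4%) in place of 41 of 102. Trav11 cells were then higher in 3 of 4 libraries, by a mean of 11.1 points ± 20.4 (SD, n = 4; two-sided exact permutation test, p = 0.375).

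With the class set by a Zbtb16 UMI in place of Trav11, which takes in more cells, Trav11 was higher in the class (2.91, SE 0.48, adjusted p = 0.0278, in a comparison where 4.14% of 15218 genes were called) and none of the 13 Trbv genes tested passed. Trbv29 was at 1.45 with an SE of 0.56 (adjusted p = 0.188). Trbv13-2 and Trbv1 were at 0.38 and 0.32 (adjusted p = 0.651 and 0.808). This comparison was added after the data had been seen. Trav1, the MAIT gene, was rare, with 2, 4, 3 and 4 cells in NCD, HFD replicate 1, HFD replicate 2 and JQF.

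Trav13-4-dv7 was found in 1 cell of NCD, 7 of HFD replicate 1, 409 of HFD replicate 2 and 7 of JQF. Its use was therefore a feature of 1 of the 2 HFD livers, with 18.3% of all CD3 cells in HFD replicate 2 and 0.119% to 0.335% elsewhere. In HFD replicate 2 these cells were mostly CD8 T cells: 96.1% held Cd8b1 (93.7 to 97.7) against 58.8% of all CD3 cells there, and 1.47% held Cd4. Pdcd1 was found in 93.4% of them, the exhaustion factor gene Tox in 99.5% and Gzmk in 86.3%, against 44.2%, 75.3% and 44.5% of all CD3 cells of that library. All CD3 cells include cells other than CD8 cells. Among its cells with Cd8a or Cd8b1 and no Cd4 UMI, Pdcd1 was found in 864 of 1367, and in 374 of the 399 with Trav13-4-dv7. Tox and Gzmk were not set against CD8 cells alone. Their median depth was 7185 UMIs, near the 6893 of all CD3 cells.

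Their beta chain usage was narrow. The constant gene Trbc1 was found in 4.16% of the Trav13-4-dv7 cells (2.44 to 6.57) against 37.7% of all CD3 cells of the library, while Trbc2 was found in 97.8% and 94.2%. A Trbv UMI was present in 56 of the cells: 33 held Trbv1 and 18 held Trbv3, and these were 33 of the 34 Trbv1 cells and 18 of the 20 Trbv3 cells among all cells with both chains. If alpha and beta genes were combined by their shares alone, 18.1 and 10.7 cells would be found. Trbv1 and Trbv3 lie 156 kb apart and occurred in the same cell 5 times in this library. Trbv1 was used by 18.3% of the Trbv cells of HFD replicate 2 (14.1 to 23.1) against 2.21% to 5.23% in the other libraries.

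Trav7d-3 was found in 59 cells of HFD replicate 2, 2 of HFD replicate 1, 6 of JQF and 0 of NCD, where 0 of 100 Trav cells gave an interval of 0 to 3.62%. Its cells had a like profile, with Cd8b1 in 96.6%, Pdcd1 in 89.8%, Gzmk in 93.2% and Trbc1 in 8.47%, but other beta chains: 5 of 16 held Trbv12-2, 4 held Trbv17 and 3 held Trbv15. Outside HFD replicate 2 the Trav13-4-dv7 cells were few and mixed. Of the 7 in HFD replicate 1, 4 held Cd8b1 and 1 held Trdc, and the single cell of NCD held Trdc. Of the 7 such cells of JQF, 5 held a UMI of the delta constant gene Trdc and none held Cd8b1, whereas Trdc was found in 4 of the 409 cells of HFD replicate 2 (0.978%). The fit over libraries was set to use libraries with at least 10 cells of each class, which only HFD replicate 2 had, so it was not run for Trav13-4-dv7.

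**Figure D4:**
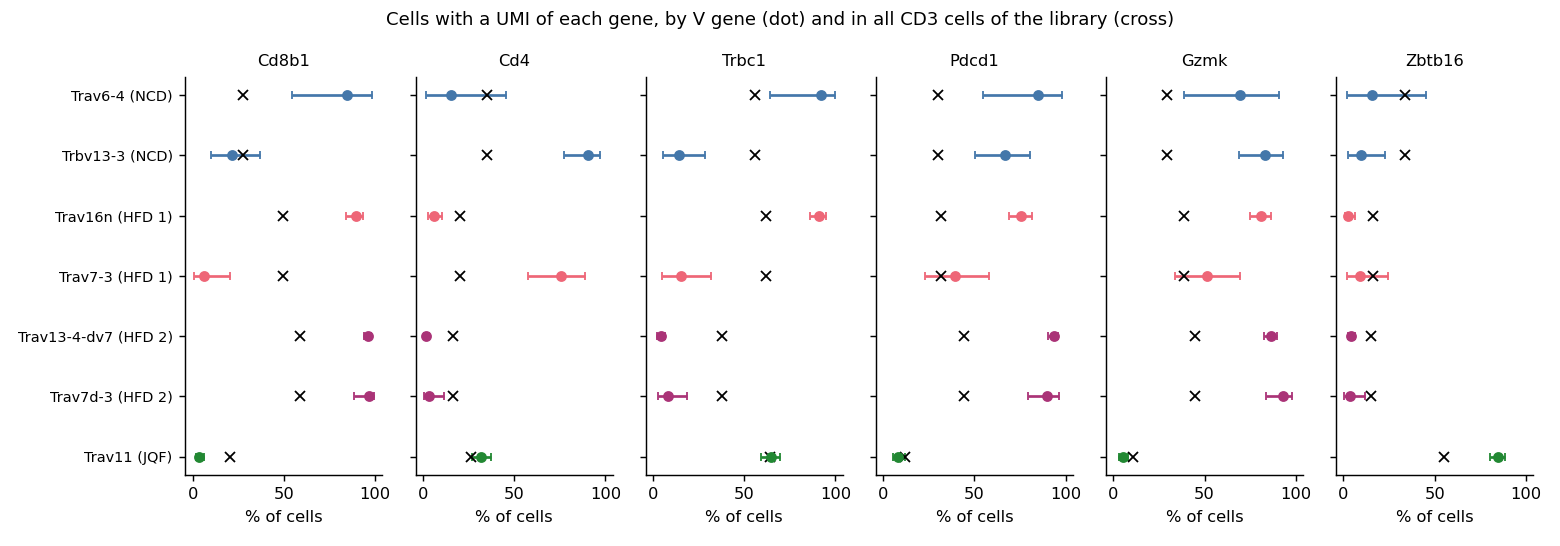
Percentage of cells with a UMI of 6 genes among the cells of 7 V gene classes (dots, with exact 95% intervals) and among all CD3 cells of the same library (crosses). The Trav13-4-dv7 and Trav7d-3 cells of HFD replicate 2 and the Trav16n cells of HFD replicate 1 stand at 89.2% or more by Cd8b1, the Trav13-4-dv7 cells at 4.16% by Trbc1 and the Trav16n cells at 90.9%.

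HFD replicate 1 was led by Trav16n, with 186 cells against 8 in NCD, 17 in HFD replicate 2 and 34 in JQF. Its cells were again mostly CD8 T cells with checkpoint transcripts: 89.2% held Cd8b1, 75.8% Pdcd1, 94.1% Tox and 81.2% Gzmk, against 49.5%, 31.8%, 69.4% and 38.8% of all CD3 cells of that library. Among its cells with Cd8a or Cd8b1 and no Cd4 UMI, Pdcd1 was found in 513 of 1094, and in 134 of the 169 with Trav16n. Unlike in HFD replicate 2, Trbc1 was found in 90.9% of them (85.8 to 94.6) against 62.1% of all CD3 cells. Of the 48 cells with a Trbv UMI, 22 held Trbv19, 14 Trbv12-2 and 6 Trbv13-2, against 10.9, 10.0 and 5.43 from the shares alone. Trbv19 was used by 18.4% of the Trbv cells of this library (14.6 to 22.8) and by 2.21% to 5.56% in the other 3. Trav10, found in 35 cells of HFD replicate 1, shared 13 of them with Trav16n, from which it lies 154 kb away.

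The CD4 side of HFD replicate 1 had its own leader. Trav7-3 was found in 33 cells, of which 75.8% held Cd4 (57.7 to 88.9), 6.06% Cd8b1 and 15.2% Trbc1, and in 0, 5 and 13 cells of NCD, HFD replicate 2 and JQF. Over all cells of this library with both chains, Trav12-2 and Trbv16 were the fourth pair by number, with 5 cells against 0.548 from the shares. CD8 cells held 18 of the 34 Trav12-2 UMIs and 15 of the 20 Trbv16 UMIs of its CD3 cells.

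In NCD, which had 100 Trav cells, Trav6-4 was found in 13 cells and in 1, 0 and 2 cells of HFD replicate 1, HFD replicate 2 and JQF. Of the 13 cells, 11 held Cd8b1 and 11 held Pdcd1. Beta chains gave more cells: Trbv13-3 was used by 18.6% of the Trbv cells of NCD (13.7 to 24.3) against 3.74%, 5.88% and 5.23% in HFD replicate 1, HFD replicate 2 and JQF, and Trbv16 by 12.4% (8.39 to 17.4) against 4.55%, 3.27% and 3.6%. Both marked CD4 cells, with Cd4 in 90.5% of the 42 Trbv13-3 cells and in 89.3% of the 28 Trbv16 cells, against 35.3% of all CD3 cells of NCD. Trbc1 was found in 14.3% and 7.14% of them, against 56.0%, and Pdcd1 in 66.7% and 57.1%, against 30.2%. The 2 genes lie 21.2 kb apart and were found together in 9 cells. The leading pair of NCD was Trav7d-4 with Trbv13-3, in 4 of 34 cells with both chains.

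**Figure D5:**
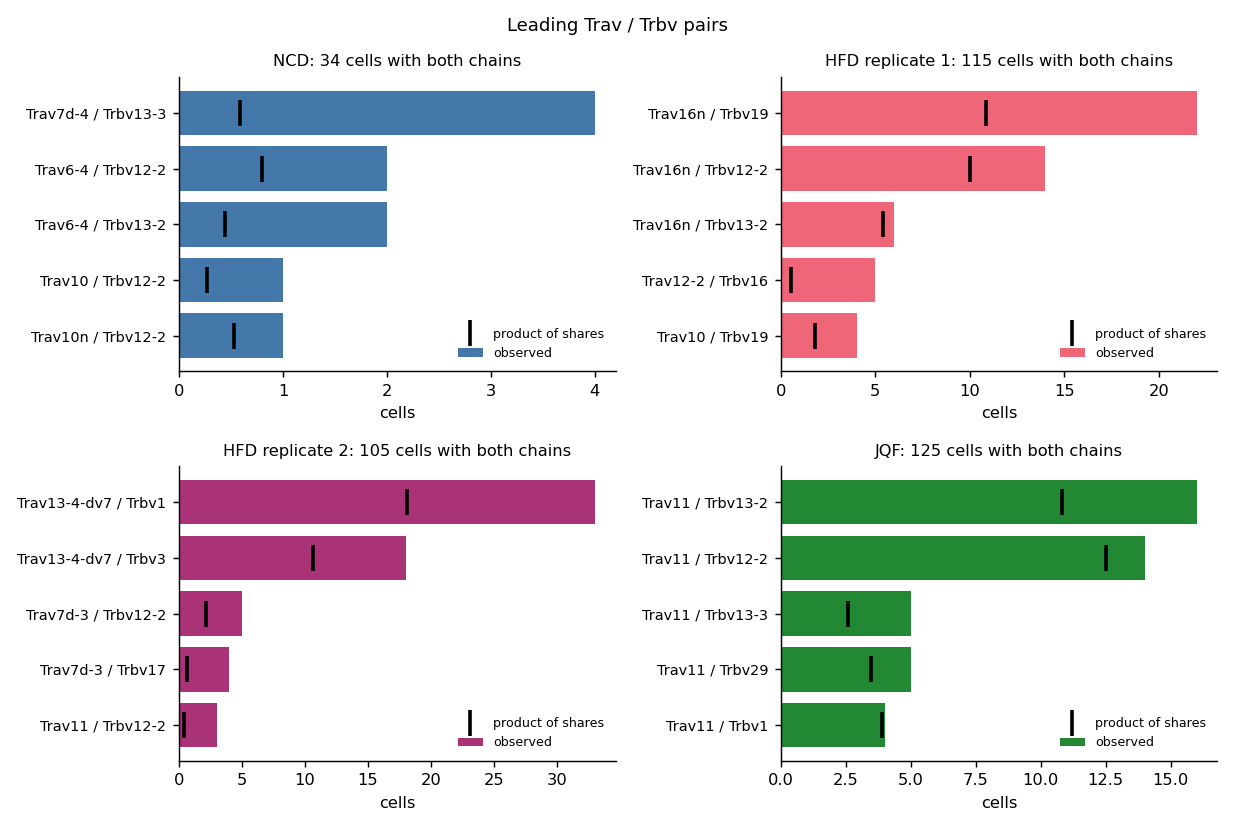
The 5 most frequent Trav and Trbv pairs of each library in cells with both chains (bars, number of cells), with the number that the product of the 2 genes' shares would give (vertical marks). Trav13-4-dv7 with Trbv1 reaches 33 of 105 cells in HFD replicate 2 and Trav16n with Trbv19 reaches 22 of 115 in HFD replicate 1; for NCD no bar exceeds 4 cells.

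In NCD and both HFD replicates, the leading Trav gene took a much larger share among CD8 cells with Pdcd1 than among CD8 cells without it. The chance that 2 V gene detections drawn from the same cells name the same Trav gene was 24.7%, 54.8% and 65.6% in CD8 cells with a Pdcd1 UMI of NCD, HFD replicate 1 and HFD replicate 2, and 5.0%, 7.38% and 7.0% in CD8 cells with none. In JQF it was 6.88% with and 3.83% without. For the Trbv genes the chance with a Pdcd1 UMI was 39.3% in NCD, 17.4% and 13.4% in HFD replicates 1 and 2 and 14.7% in JQF. With none it was 7.46%, 7.46%, 7.68% and 7.73%, so JQF was near HFD replicate 2 by the beta chain. Trav6-4 made up 55.6% of the Trav cells of the Pdcd1 group in NCD (10 of 18), Trav16n 78.4% in HFD replicate 1 (134 of 171) and Trav13-4-dv7 84.4% in HFD replicate 2 (374 of 443). In JQF the leading gene of that group, Trav6-3, reached 17.2% (5 of 29). By the beta chain the leading genes of the same cells were Trbv12-2 in NCD (58.7%, 27 of 46), Trbv19 in HFD replicate 1 (33.9%, 41 of 121), Trbv1 in HFD replicate 2 (30.8%, 48 of 156) and Trbv12-1 in JQF (37.9%, 11 of 29, 20.7 to 57.7). In NCD its near neighbour Trbv13-2 was held by 24 of the same 46 cells (52.2%), so some cells held both. CD8 cells made up 33.7%, 52.4%, 61.2% and 23.2% of the CD3 cells in NCD, HFD replicate 1, HFD replicate 2 and JQF. In CD4 cells the chance for the Trav genes was 1.41%, 6.86% and 3.57% in NCD, HFD replicate 1 and HFD replicate 2. It was 22.7% in JQF, where 98 of 194 Trav cells of the CD4 gate used Trav11.

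Over all CD3 cells, beta chain usage was led in common. Trbv12-2 was used by 24.8% (19.3 to 30.9), 23.5% (19.3 to 28.2), 19.6% (15.3 to 24.5) and 23.6% (20.1 to 27.4) of the Trbv cells of NCD, HFD replicate 1, HFD replicate 2 and JQF, and these intervals overlap. Trbv13-2, the main beta chain gene of iNKT cells, was used by 20.4% (15.3 to 26.2) in NCD, 11.2% (8.21 to 14.9) and 6.86% (4.3 to 10.3) in the HFD replicates and 21.3% (17.9 to 24.9) in JQF. In JQF 74.6% of the Trbv13-2 cells held Zbtb16, against 19.6% in NCD, where 69.6% held Cd8b1. Trbv12-2 and Trbv13-2 lie 2.03 kb apart, and 12 cells of NCD, 3 of HFD replicate 1 and 8 of JQF held both. Trbv29, another iNKT beta chain gene, was used by 5.75%, 3.21%, 2.61% and 5.77%. Among CD8 cells alone the leading Trbv gene differed between the libraries. It was Trbv12-2 in NCD (43.0%, with Trbv13-2 at 35.4%), Trbv19 in HFD replicate 1 (26.2%), Trbv1 in HFD replicate 2 (23.4%) and Trbv12-1 in JQF (18.3%).

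Cells with UMIs of more than 1 gene of a chain made up 5.67% to 9.13% of the Trav cells and 5.05% to 16.4% of the Trbv cells. Part of the pairs were close neighbours. In HFD replicate 2, Trav8-2 and Trav16, which lie 18.5 and 13.7 kb from Trav13-4-dv7, shared 12 of their 16 and 6 of their 17 cells with it. Trav8-2 is annotated as a pseudogene. Others were far apart, such as Trav7-3 and Trav6-7-dv9, which lie 266 kb apart and shared 4 cells of HFD replicate 1. Doublets were kept, and neither their part in these cells nor any other cause was tested.

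Between the groups, no V gene passed in the main tests over libraries, while some alternatives given below called V genes. UMIs of the CD3 cells were summed per library and tested with edgeR's quasi-likelihood test over 16409 genes, of which 23 Trav and 15 Trbv genes passed the filter on low counts. No gene of any kind was called between HFD and NCD or between JQF and HFD (0%), while 4186 genes (25.5%) and 1089 genes (6.64%) had an unadjusted p under 0.05, 4 and 3 V genes among them, and DESeq2 called 1798 (13%) and 187 (1.26%) genes with no V gene among them. The spread rested on the 2 HFD libraries alone, with 1 residual degree of freedom, and those libraries held the unlike alpha chains described above. Trav11 was at 0.925, 5.32, 3.22 and 12.7 CPM in NCD, HFD replicate 1, HFD replicate 2 and JQF, a log2 difference of 2.24 between HFD and NCD (SE 0.58, adjusted p = 0.129), and of 1.24 with cells counted in place of UMIs (adjusted p = 0.228). The 23 Trav genes in this fit, Trav11 among them, had a median of 2.52 between HFD and NCD, with 20 above 0. Some passed the filter through an HFD library, such as Trav7d-3 with 0 UMIs in NCD and 89 in HFD replicate 2. The filter thus favoured a median above 0, which is no measure to set Trav11 against. The share of Trav cells with Trav11 was 10% in NCD against 9.89% and 5.81% in the HFD replicates, whose Trav cells included the many Trav16n or Trav13-4-dv7 cells. Between JQF and HFD Trav11 differed by 1.66 (SE 0.45, adjusted p = 0.653). Trbv12-2 was at 5.21, 6.17, 3.53 and 3.59, with a difference of -0.06 between HFD and NCD (SE 0.54, adjusted p = 0.956). Its difference between JQF and HFD was -0.34 (SE 0.53, adjusted p = 0.998). Trbv13-3 was at 4.79 in NCD and at 0.792, 1.11 and 0.79 in the others, a difference of -2.27 between HFD and NCD (SE 0.62, adjusted p = 0.138). Of the fixed lists, the CD8 effector and checkpoint genes had a median log2 difference of -1.60 between JQF and HFD, with all 11 genes below 0 and none called, against -0.01 over all genes. The medians of the iNKT, gamma-delta, receptor complex and naive lists were 0.51, 0.91, -0.14 and -0.04 in that comparison, and -0.14, 0.74, 0.32 and -0.16 between HFD and NCD, where the CD8 effector list was at 0.98 and all genes at 0.09. Between JQF and HFD the 23 Trav genes had a median of -1.11, with 18 below 0, and the 15 Trbv genes had medians of 0.01 between HFD and NCD and -0.75 between JQF and HFD. These V genes are the ones that passed the filter, some through a single library where they were high, and their medians are given as a description.

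When cells with a UMI were counted in place of UMIs, 3 V genes passed between HFD and NCD, in a comparison that called 18.3% of its genes: Trbv13-3 (-2.32, adjusted p = 0.0273) and Trav6-4 (adjusted p = 0.0216) were lower and Trav13-4-dv7 (adjusted p = 0.0229) was higher in HFD, the last with 7 cells in HFD replicate 1 and 409 in HFD replicate 2. Trav6-4 had 13, 1, 0 and 2 cells in NCD, HFD replicate 1, HFD replicate 2 and JQF, so it entered the test through the NCD library alone, which set the direction of its call. Between JQF and HFD the same count called 2.17% of the genes and no V gene, and without predicted doublets 8.3% and 0.747% of the genes were called in the HFD and JQF comparisons, again with no V gene. In the CD8 cells, with 14 Trav and 14 Trbv genes of 14765 tested, again no gene was called in either comparison by edgeR (0%), with 22.4% and 7.4% at an unadjusted p under 0.05, and DESeq2 called 6.97% and 0.989% of the genes but no V gene. Cells counted in place of UMIs gave 7.07% and 0.675% there, with no V gene, and the JQF comparison without predicted doublets gave 4.2%, with none. Trbv13-2 was at -2.57 between HFD and NCD there (SE 0.82, adjusted p = 0.181), and it passed with predicted doublets removed (-2.91, adjusted p = 0.0328), as the sole V gene of a comparison that called 9.05% of its genes. Its difference was -3.46 without HFD replicate 1 and -1.99 without HFD replicate 2. Without the filter on low counts, Trav13-4-dv7, Trav16n and Trav7d-3 were called higher and Trav6-4 and Trbv13-2 lower in HFD than in NCD (12.8% of genes called), and Trav13-4-dv7, Trav16n, Trav7d-3 and Trbv1 were called lower in JQF than in HFD (2.95%). The HFD libraries were unlike in each of these 4 genes. Trav16n was at 24.0 CPM in HFD replicate 1 and 1.24 in HFD replicate 2, where JQF had 2.28. Trav7d-3 was at 0 and 7.10, Trbv1 at 0.429 and 4.70 and Trav13-4-dv7 at 0.964 and 84.8 in HFD replicates 1 and 2. These calls, the 3 higher ones against NCD included, rest on high values in 1 HFD library, and no test with 1 HFD library left out was possible. The calls of Trav6-4 and Trbv13-2 rest on the single NCD library. In CD8 cells Trav6-4 had 10 UMIs in NCD and 0 in the other libraries, so NCD alone set its direction. Trbv13-2 was at 7.83 CPM in NCD and at 1.93, 0.660 and 0.992 in HFD replicate 1, HFD replicate 2 and JQF.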

How the data were processed

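Single-cell libraries of 4 mouse livers were read as the UMI counts per gene and cell barcode that the authors deposited. The submitters' processing notes name Cell Ranger 6.0.1, Seurat 4.0.3 and mm10, while the file headers of the filtered matrices name another Cell Ranger release, so whether intronic reads were counted is not settled and V gene counts could change with it. The filtered matrices held 7254 to 10943 barcodes, of which 5975 to 10259 passed 500 genes and 20% mitochondrial UMIs, with 67615639 to 108062769 UMIs per library. Libraries shared 12 to 27 barcodes per pair. Doublets were kept: Scrublet at its own threshold marked 0.0111% to 3.23%, so one alternative removed the 421 to 958 barcodes with the highest scores. CD8 cells were CD3 cells with Cd8a or Cd8b1 and no Cd4 UMI, and CD4 cells the reverse.

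Counts were summed per library, filtered with filterByExpr, scaled by TMM and tested with edgeR 4.0.16 (quasi-likelihood, Benjamini-Hochberg adjusted p under 0.05) in R 4.3.3, with DESeq2 1.42.0 as an alternative. The group fits had 1 residual degree of freedom, so p-values rest on the spread between the 2 HFD livers. The fits were tested on simulated data. Python 3.11.15, scipy 1.17.1 and scanpy 1.11.5 were used for cell counts, intervals and doublet scores. V gene sequences came from the GENCODE M21 transcripts (GRCm38).

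The genes examined and the lists were chosen with earlier results of these data known. Named were Trav11, Trav11d, Trav13-4-dv7, Trav1, Trbv13-2, Trbv29, Trbv1, the 8 Trav and 8 Trbv genes of highest mean usage, every V gene called and the 5 commonest pairs per library. Trav7-3, Trav8-2, Trav6-3, Trav6-7-dv9, Trbv15 and Trbv17 were named after their values were seen. Trav genes define the Trav11 classes, so their rows in that fit are not read as results. Not every gene of the lists is reported here.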

Additional observations from a re-analysis of the deposited data

Results flagged for a closer look

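V gene molecules were also found in barcodes outside the called cells, which no comparison above used. Trav13-4-dv7 had 41 UMIs there in HFD replicate 2 (4.47 per 1000000 UMIs outside the called cells) and 0 in the other 3 libraries. Trav11 and Trav11d together had 16 such UMIs in JQF (1.94 per 1000000) and 7 in HFD replicate 2 (0.763 per 1000000), against 2 in HFD replicate 1 and 0 in NCD. All 3 values were above that of the NCD library, and the genes were those most used, or used, by the called T cells of the same library.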

How the results depend on the processing

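Alternatives covered scaling, DESeq2, the filter on low counts, doublets, stricter gates, cells counted in place of UMIs, thinning to 3000 UMIs and each library left out. Those on the denominator, the Zbtb16 class, Trav13-4-dv7 cells and cells with markers of other types were chosen after seeing the data. The number of V genes called became 3 between HFD and NCD in CD3 cells (cells counted), 5 (no filter) and 1 (doublets removed) between HFD and NCD in CD8 cells, and 4 between JQF and HFD in CD8 cells (no filter). It stayed at 0 in the other alternatives of these 4 group comparisons, and 1 V gene, Trav11, was called by the Zbtb16 class. Trbv12-2 turned to 0.078 between JQF and HFD when thinned. With 1 library left out it ranged from -0.49 to 0.25 between HFD and NCD, from -0.71 to 0.089 between JQF and HFD and from -0.40 to 0.77 in Trav11 cells. Ccl5 turned to 0.18 in Trav11 cells when cells were counted. The genes called in Trav11 cells numbered 10 with no library block, 604 with no filter, 394 with cells counted and 630 by the Zbtb16 class, and 74 to 295 with 1 library left out.

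Per CD3 cell, Trav11 usage was 1.19%, 2.49%, 1.79% and 8.2% in NCD, HFD replicate 1, HFD replicate 2 and JQF, and that of Trav13-4-dv7 was 0.335%, 18.3% and 0.178% in HFD replicate 1, HFD replicate 2 and JQF. With at least 2 UMIs required, Trav11 usage was 14.9% in HFD replicate 1 and 55.5% in JQF, and Trav13-4-dv7 usage was 10% in NCD (1 of 10 cells) and 75.9% in HFD replicate 2. It was 0% in NCD with doublets removed. The invariant pairing difference was -33.3 points with at least 2 UMIs (1 library), -16.7 when thinned (3 libraries) and -1.33 to 13.5 with 1 library left out. The cause of these changes was not tested.

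Leaving out 1 HFD library leaves the group fits no residual degree of freedom, so only fold changes were read there. No Trav13-4-dv7 class fit was run, since HFD replicate 2 alone reached the set floor of 10 such cells, and NCD was left out of the class fit without doublets. No paired analysis was possible because the groups share only replicate number 1. Sparse capture limits all usage values: many V gene detections rest on 1 UMI.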
